A study of Homo sapiens with 5 samples.

Results

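The HOX genes of the HOXA, HOXB, HOXC and HOXD clusters were examined in HCT116 cells, a human colorectal carcinoma cell line, after stable knockdown of ELK4. A gene was included when its name consisted of HOX, a cluster letter and a number, which gave 39 genes of the 20026 in the table, with 11 in HOXA, 10 in HOXB, 9 in HOXC and 9 in HOXD. The 2 control samples, pLKO_1 and pLKO_2, carried the lentiviral pLKO.1 vector, and the 3 knockdown samples, shELK4_1, shELK4_2 and shELK4_3, each carried a different short hairpin RNA against ELK4 in that vector. All cells were selected with puromycin, and the hairpins served as the replicates of the knockdown. Nothing in the labels says that the control samples came from separate cultures, so the p-values measure the spread between these 5 samples, part of which may be technical.

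HOX genes encode homeodomain transcription factors that give cells their position along the head-to-tail axis of the embryo. Within a cluster the genes are ordered as they are used, with low numbers acting toward the head and high numbers toward the tail, and the adult colon keeps a HOX pattern of its own. HOX proteins gain DNA specificity by binding together with TALE homeodomain proteins of the PBX and MEIS families, while Polycomb and trithorax group proteins keep the clusters silent or active. ELK4 is an ETS family transcription factor, a ternary complex factor best known as a partner of SRF.

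ELK4 itself had an FPKM (a fragment count scaled to transcript length and to all mapped reads) of 8.62 in pLKO_1 and 7.60 in pLKO_2, compared with 3.14, 2.82 and 2.44 in shELK4_1, shELK4_2 and shELK4_3. All 3 hairpins lay below both controls, and the log2 fold change was -1.26 (limma, adjusted p = 0.029, standard error 0.12). With no lower limit on FPKM the fold change of ELK4 was the same but its adjusted p was 0.114 (limma). The epithelial genes EPCAM, KRT8, KRT18 and KRT19 were abundant, whereas VIL1 did not exceed 0.054 FPKM. The summed FPKM of 6 epithelial markers ranged from 2615 to 2655 in the controls and from 1476 to 1989 in the knockdown samples. Of the 5 that could be tested, KRT8, KRT18 and KRT19 were lower at an unadjusted p under 0.05 (limma) and EPCAM and CDH1 were not, and the part of these markers in the HOX values was not tested. In bulk RNA, fewer cells of a kind and less RNA per cell cannot be told apart. The endothelial markers summed to at most 0.063 FPKM and the leukocyte markers to at most 0.161 FPKM, with CDH5 and CD3E listed at 0 in all 5 samples. COL1A1 was at 3.10 to 4.21 FPKM, while the other fibroblast markers COL1A2 and DCN did not exceed 0.019.

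Expression of the HOX genes was uneven. HOXA contributed most of the summed HOX FPKM, followed by HOXB, HOXC and HOXD. A total of 30 HOX genes were above 0 in all 5 samples, and 3 genes, HOXB1, HOXC12 and HOXD12, were listed at 0 throughout. The test on log2(FPKM + 1) was limited to genes that reached an FPKM of 1 in 2 or more samples, which kept 22 HOX genes, 10 in HOXA, 7 in HOXB, 4 in HOXC and 1 in HOXD. The other 17 are described by their values. HOXA3 reached this limit through the controls alone. HOXA4 reached it in both controls but, among the knockdown samples, only in shELK4_3. The presence of both genes among those tested therefore depended on the group in which they were higher.

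The lowest p-values among the HOX genes belonged to members of HOXA and to HOXB5. Among them, HOXA3, HOXA4, HOXA9 and HOXA10 lay below both controls with each of the 3 hairpins, with unadjusted p-values under 0.05 from limma. HOXB5 was higher in all 3, also with an unadjusted p under 0.05. In all, 6 genes had such a p, which is 27.3% of the 22 tested HOX genes, against 16.2% of all 10780 tested genes. The 5 lower genes are 22.7% of the tested HOX genes, against 8.14% of all tested genes, and the 1 higher gene compares with 8.08% of all tested genes. HOXA3 and HOXA4, which met the FPKM limit through the controls, are among these 5 and in the HOXA median given below. No HOX gene had an adjusted p under 0.05 in limma (0 of 22, against 0.167% of all tested genes, with 6 HOX genes at an unadjusted p under 0.05). The median log2 fold change was -0.07 over the 22 HOX genes and -0.01 over all tested genes. It was -0.42 over the tested HOXA genes, -0.03 over HOXB and 0.02 over HOXC.

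**Figure D1:**
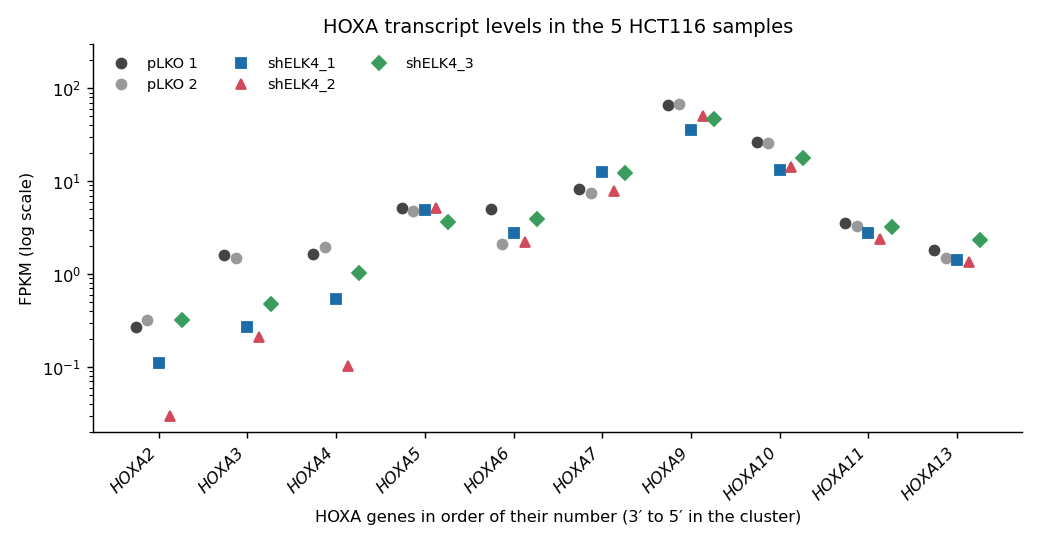
FPKM of HOXA2 to HOXA13 (log axis) in each of the 5 samples, with circles for the pLKO samples and squares, triangles and diamonds for shELK4_1, shELK4_2 and shELK4_3. The knockdown points of HOXA3, HOXA4, HOXA9, HOXA10 and HOXA11 all lie below both control points, and those of HOXA2, HOXA5, HOXA6, HOXA7 and HOXA13 do not.

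HOXA3 acts in the development of the pharyngeal arches, thymus and parathyroid, and it is also counted among the genes of angiogenesis. It lies on the minus strand of chromosome 7 (GRCh38, 27106184 to 27152583), and its longest transcripts span HOXA4, HOXA5 and HOXA6. Its FPKM was 1.60 in pLKO_1 and 1.49 in pLKO_2. After knockdown it was 0.269, 0.212 and 0.480 in shELK4_1, shELK4_2 and shELK4_3. The groups were well apart, and the knockdown samples held 17.4%, 13.7% and 31.0% of the control mean. The log2 fold change of -0.95 (95% interval -1.24 to -0.67, limma adjusted p = 0.0527) ranked 25th by p-value among the tested genes. This rank and adjusted p depend on the FPKM limit, which HOXA3 met through the controls alone. Without that limit the log2 fold change was the same and its adjusted p was 0.134 (limma). With a pseudocount of 0.1 in place of 1, which compresses low values less, the log2 fold change was -2.02 (limma, adjusted p = 0.0744). Over the alternatives that kept both controls, the adjusted p of HOXA3 ran from 0.00761 to 0.1499 (limma). The gene had been singled out by the study on these same samples, so its difference here is not independent evidence. The paper also reported lower HOXA3 by qPCR in colorectal cancer cell lines after ELK4 knockdown, a measurement that is not part of these data.

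HOXA4, the next gene in the cluster, takes part in patterning of the neck vertebrae. HOXA4 had 1.64 and 1.94 FPKM with the vector, and 0.534, 0.101 and 1.03 in shELK4_1, shELK4_2 and shELK4_3. All 3 values were below the controls, but the hairpins differed widely from each other. The log2 fold change was -0.89 (95% interval -1.47 to -0.30, limma adjusted p = 0.168), and -1.84 with a pseudocount of 0.1. HOXA2, which patterns the second pharyngeal arch, remained under the limit for testing, with 0.269 and 0.322 FPKM with the vector and 0.110, 0.0295 and 0.321 in shELK4_1, shELK4_2 and shELK4_3. Only shELK4_1 and shELK4_2 were below the controls for HOXA2. Thus, shELK4_2 had the lowest value for HOXA2, HOXA3 and HOXA4.

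HOXA9 and HOXA10, both known for their roles in blood progenitors and leukemia, were the most abundant HOXA genes. HOXA9 was at 66.3 and 68.2 FPKM with the vector and at 35.4, 49.9 and 47.0 in shELK4_1, shELK4_2 and shELK4_3. HOXA10 was at 26.4 and 26.03 FPKM with the vector and at 13.3, 14.2 and 17.6 in the knockdown samples. For both genes the controls agree closely and every hairpin lies below them. The log2 fold change of HOXA10 was -0.77 (95% interval -1.08 to -0.47, limma adjusted p = 0.079), and that of HOXA9 was -0.61 (95% interval -0.98 to -0.25, limma adjusted p = 0.142). According to GENCODE release 44, other annotated genes, including an unnamed gene that overlaps both, overlap 27.0% of the exon sequence of HOXA9 and 26.3% of that of HOXA10, so reads of the pair could be divided between genes.

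The 3 genes between these groups had overlapping values in the controls and the knockdown samples. HOXA5, a gene of lung and gut development, was at 5.20 and 4.81 FPKM with the vector and at 4.92, 5.15 and 3.68 in shELK4_1, shELK4_2 and shELK4_3, with overlapping groups. Its log2 fold change was -0.11 (95% interval -0.45 to 0.22, limma adjusted p = 0.722). HOXA6 differed between the controls themselves, with 4.98 FPKM in pLKO_1 and 2.12 in pLKO_2, and its knockdown values of 2.78, 2.21 and 3.92 lay between them. HOXA7 had 8.15 and 7.43 FPKM with the vector and 12.7, 7.89 and 12.4 in shELK4_1, shELK4_2 and shELK4_3. It was above both controls with shELK4_1 and shELK4_3 but between them with shELK4_2, and the log2 fold change was 0.42 (95% interval -0.05 to 0.89, limma adjusted p = 0.348). Other annotated genes, such as the antisense HOXA-AS3, overlap 62.5% of the exon sequence of HOXA7, 47.8% of HOXA4, 40.1% of HOXA6 and 19.9% of HOXA3. The sources used here do not say whether the libraries kept the strand. Genes on the same strand, which strand cannot separate, cover 31.3% of HOXA4, 9.29% of HOXA3 and 4.44% of HOXA6. An unnamed gene overlaps both HOXA3 and HOXA4, so reads of this pair could also be divided between genes. By contrast, other genes on either strand cover 0% of the exon sequence of HOXA2 and HOXA5 and 1.70% of that of HOXA13. For HOXA11 the share is 27.2%, from the antisense HOXA11-AS.

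At the tail end of the cluster, HOXA11, which acts in the limb, kidney and uterus, was at 3.54 and 3.28 FPKM with the vector and at 2.76, 2.38 and 3.21 in shELK4_1, shELK4_2 and shELK4_3. The groups did not overlap, although shELK4_3 was close to pLKO_2, and the log2 fold change was -0.23 (95% interval -0.51 to 0.06, limma adjusted p = 0.400). HOXA13, a gene of the hindgut and the digits, was at 1.84 and 1.51 FPKM with the vector and at 1.41, 1.33 and 2.33 in the knockdown samples. Its groups overlapped, with a log2 fold change of -0.01 (95% interval -0.42 to 0.41, limma adjusted p = 0.990).

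**Figure D2:**
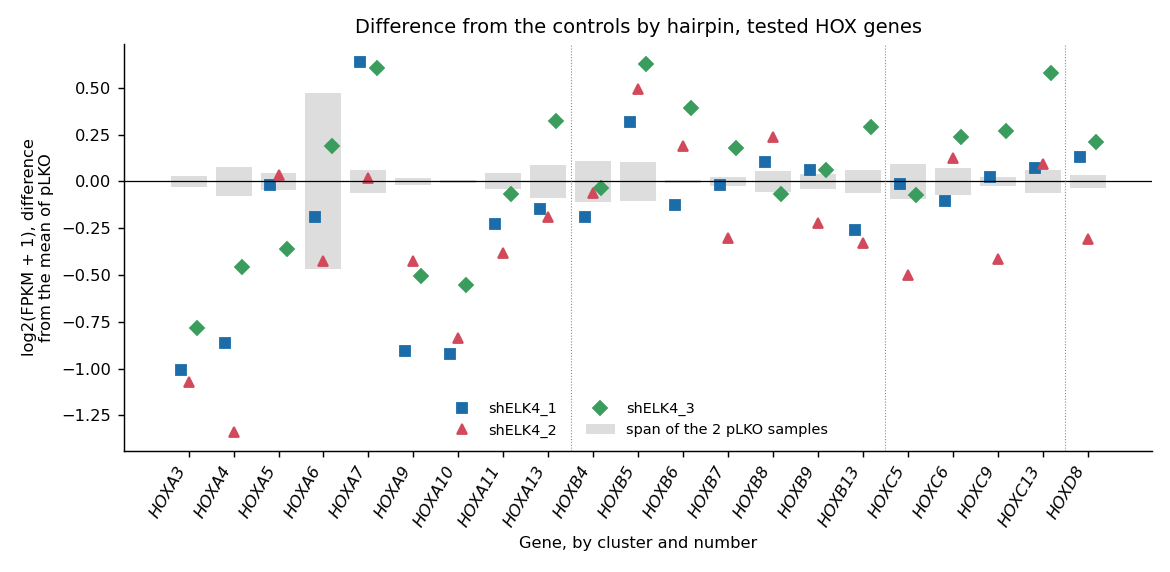
Difference of each knockdown sample from the mean of the 2 controls on log2(FPKM + 1) for tested HOX genes, ordered by cluster and number, with a grey bar for the span of the 2 controls. HOXA3, HOXA4, HOXA9, HOXA10 and HOXA11 are below their bars with every hairpin and HOXB5 and HOXC13 are above theirs, whereas many other genes have hairpins on both sides.

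Next, HOXA3 was compared with each of the 10 other HOXA genes within every sample, as the difference in log2(FPKM + 1). HOXA3 stood lower relative to the other gene with every hairpin than in either control for 9 of the 10 genes on this scale, and for 8 of them as a plain ratio of FPKM. The gene that differed between the scales was HOXA2. The ratio of HOXA3 to HOXA2 was 5.96 and 4.64 with the vector and 2.44, 7.19 and 1.496 in shELK4_1, shELK4_2 and shELK4_3. Here shELK4_2 lay above the controls, but HOXA2 was at only 0.0295 FPKM in that sample. The exception on both scales was HOXA4, for which the difference changed by -0.07 between the groups and overlapped (exact permutation test, two-sided, p = 0.8). Relative to HOXA7, the difference in log2 level changed most, by -1.37, from -1.79 in the controls to -3.16 in the knockdown samples. It changed by -0.95 relative to HOXA13, by -0.84 relative to HOXA5, by -0.81 relative to HOXA6, by -0.78 relative to HOXA2 and by -0.73 relative to HOXA11. The change was -0.18 relative to HOXA10 and -0.34 relative to HOXA9. With a pseudocount of 0.1 each of the 10 changes was larger in size, and those relative to HOXA10, HOXA9 and HOXA7 were -1.21, -1.40 and -2.48. In FPKM, HOXA3 held 20.7% of its control mean, HOXA10 57.4% and HOXA9 65.6%. For each of the 9 genes the exact permutation test gave p = 0.2, which is the smallest that 2 and 3 samples allow, and 0.222 after adjustment over the 10 pairs. This test therefore cannot pass a threshold of 0.05 with these numbers of samples. All 10 comparisons also share the same HOXA3 values. HOXA3 had been singled out on these samples and had the most negative log2 fold change of the tested HOX genes. The count of 9 is therefore a description and not 9 separate pieces of evidence.

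By hairpin, the lower HOXA genes did not follow one order. HOXA9 and HOXA10 were lowest with shELK4_1, at 52.7% and 50.9% of the control mean. HOXA3 and HOXA4 were lowest with shELK4_2, at 13.7% and 5.66%. With shELK4_3, which left the least ELK4 (30.1% of the control mean), HOXA3, HOXA4 and HOXA10 were less reduced than with the other hairpins, at 31.0%, 57.7% and 66.9%. Each hairpin is a single sample, so these orders have no replicate check.

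To show what lies before the genes that differed, the 250 bases upstream of a RefSeq start site (GRCh38.p14) are given for HOXA3, HOXA4 and HOXA9, as the neighbors with the largest difference and the most abundant HOXA gene. They are on the minus strand of chromosome 7, 5′ to 3′, at chr7:27113843-27114092 for HOXA3, chr7:27130758-27131007 for HOXA4 and chr7:27165538-27165787 for HOXA9, and capitals mark a GC box, the sequence CCCCGCCCC on either strand that SP1 and related factors bind.
HOXA3: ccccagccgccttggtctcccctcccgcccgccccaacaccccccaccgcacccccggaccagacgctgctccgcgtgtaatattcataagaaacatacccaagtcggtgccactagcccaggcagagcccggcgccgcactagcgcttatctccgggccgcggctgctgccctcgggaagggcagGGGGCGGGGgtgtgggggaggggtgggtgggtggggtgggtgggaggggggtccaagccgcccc
HOXA4: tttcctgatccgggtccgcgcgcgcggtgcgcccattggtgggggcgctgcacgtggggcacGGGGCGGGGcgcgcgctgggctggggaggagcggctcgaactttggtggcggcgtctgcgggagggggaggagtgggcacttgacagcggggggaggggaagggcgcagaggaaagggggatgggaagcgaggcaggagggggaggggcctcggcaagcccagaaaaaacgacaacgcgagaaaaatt
HOXA9: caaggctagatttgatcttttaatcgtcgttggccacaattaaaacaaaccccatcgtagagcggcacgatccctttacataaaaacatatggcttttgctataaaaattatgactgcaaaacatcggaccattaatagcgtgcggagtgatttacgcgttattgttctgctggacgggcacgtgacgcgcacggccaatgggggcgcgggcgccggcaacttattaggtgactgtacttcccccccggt
RefSeq start sites were found for 20 of the 39 HOX genes, 26 distinct sites in all, of which 7 belong to HOXA3 and 1 is shared by HOXC4 and HOXC5. A GC box lay within 250 bases before and 50 after 2 of the 26 sites, against 15.7% of all 35116 promoters of the same length. It was 64 bases before the HOXA3 site shown and 188 bases before that of HOXA4. Of the 7 HOXA3 sites only the one shown had a GC box, and which site these cells use was not examined. The ETS sequence CCGGAAGT, or its core CCGGAA, on either strand was in 0 of the 26 windows, against 4.14% and 17.2% of all promoters. The core is contained in the longer ETS sequence, so these 2 shares overlap. A match describes the letters in this window only.

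The HOXB genes, which include the most abundant HOX gene outside HOXA, had overlapping groups in 6 of the 7 tested members. HOXB7 was at 20.6 and 21.4 FPKM with the vector and at 20.7, 16.8 and 23.9 in shELK4_1, shELK4_2 and shELK4_3. The groups overlapped, with a log2 fold change of -0.05 (95% interval -0.40 to 0.31, limma adjusted p = 0.904). HOXB5, a gene of enteric neuron and lung development, was the exception. It had 3.13 and 3.77 FPKM with the vector and 4.54, 5.25 and 5.86 in shELK4_1, shELK4_2 and shELK4_3, and every hairpin lay above both controls. The log2 fold change was 0.48 (95% interval 0.17 to 0.79, limma adjusted p = 0.163).

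HOXB4, HOXB6, HOXB8, HOXB9 and HOXB13 had overlapping groups and log2 fold changes from -0.10 to 0.15 (adjusted p from 0.666 to 0.925, limma). HOXB13, a marker of the hindgut and prostate, was at 5.01 and 5.55 FPKM with the vector and at 4.24, 3.99 and 6.68 in the knockdown samples, so only shELK4_3 was above them. HOXB4, a gene of blood stem cell expansion, was at 4.89 and 5.88 FPKM with the vector and at 4.59 to 5.22 in the knockdown samples. HOXB6, HOXB8 and HOXB9 ranged from 3.76 to 10.6 FPKM over all samples. Under the testing limit, HOXB2 was at 0.637 and 0.778 FPKM with the vector and at 0.4997, 0.586 and 0.480 in the knockdown samples, without overlap, while HOXB3 overlapped at 0.356 to 0.553 FPKM. HOXB3 is the paralog of HOXA3, and its knockdown mean was 97.5% of the control mean, against 20.7% for HOXA3.

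**Figure D3:**
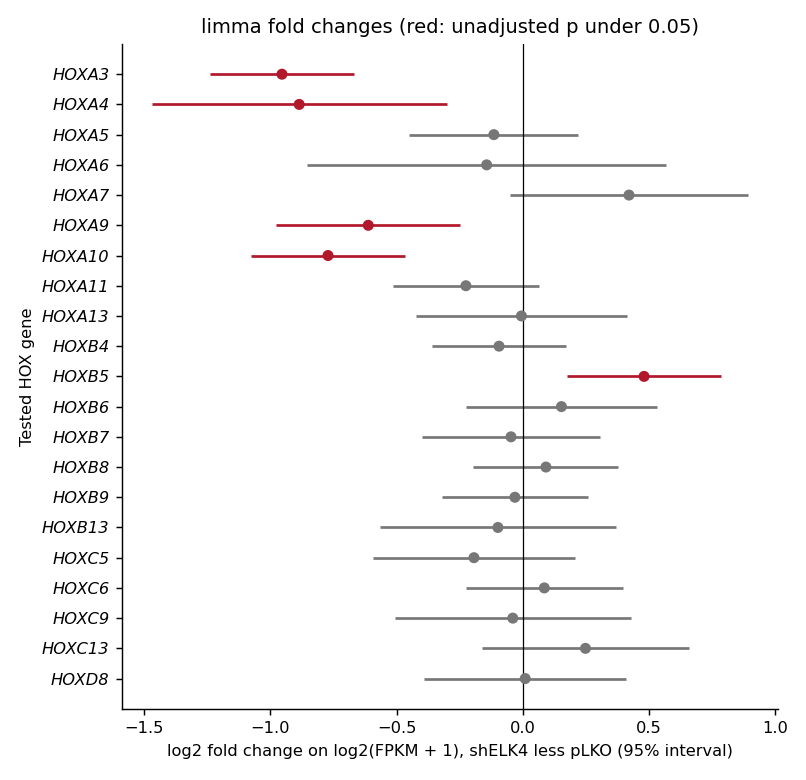
Log2 fold change on log2(FPKM + 1), shELK4 less pLKO, with its 95% interval for tested HOX genes (limma), in red where the unadjusted p was under 0.05. The red points are HOXA3, HOXA4, HOXA9 and HOXA10 on the negative side, from -0.95 to -0.61, and HOXB5 at 0.48.

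In HOXC, the highest mean was that of HOXC9, at 4.186 and 4.0 FPKM with the vector and at 4.18, 2.82 and 5.14 in shELK4_1, shELK4_2 and shELK4_3. The hairpins fell on both sides of the controls (log2 fold change -0.04, 95% interval -0.51 to 0.43, limma adjusted p = 0.942). HOXC13, a regulator of hair keratins, was at 2.30 and 2.58 FPKM with the vector and at 2.61, 2.67 and 4.13 in the knockdown samples. Its groups did not overlap, but shELK4_1 and shELK4_2 were close to pLKO_2 and the log2 fold change was 0.25 (95% interval -0.16 to 0.66, limma adjusted p = 0.5004). HOXC5 and HOXC6 were at 0.686 to 1.66 FPKM with overlapping groups and log2 fold changes of -0.19 and 0.09 (adjusted p = 0.604 and 0.776 from limma). Among the untested genes, HOXC8 was at 0.419 and 0.449 FPKM with the vector and at 0.510, 0.527 and 0.571 in the knockdown samples, without overlap. HOXC10 ran from 0.346 in shELK4_2 to 1.81 in shELK4_3 with the controls between, HOXC4 from 0.275 to 0.711 with overlapping groups, and HOXC11 did not exceed 0.192 FPKM. The share of exonic bases that other genes cover is 67.3% for HOXC5, 17.5% for HOXC4 and 16.1% for HOXC6.

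HOXD was the least expressed cluster. HOXD8, the only HOXD gene over the testing limit, was at 2.97 and 2.77 FPKM with the vector and at 3.23, 2.12 and 3.47 in shELK4_1, shELK4_2 and shELK4_3. The groups overlapped (log2 fold change 0.01, 95% interval -0.39 to 0.41, limma adjusted p = 0.983). HOXD11 was listed at 0 in pLKO_1 and at 0.0588 FPKM in pLKO_2, and was at 0.110, 0.118 and 0.234 FPKM in the knockdown samples, a difference that is small in FPKM. HOXD4 was at 0.241 to 0.465 FPKM with overlapping groups. The other HOXD genes did not exceed 0.104 FPKM in any sample. HOXD3, the other paralog of HOXA3, was at 0.0204 to 0.104 FPKM.

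Over whole clusters, the summed HOXA FPKM was 123 and 120 in the controls and 75.5, 85.5 and 93.5 in shELK4_1, shELK4_2 and shELK4_3, so the knockdown mean was 69.7% of the control mean. The HOXB sum was 52.0 and 55.2 with the vector and 52.3, 50.9 and 62.7 in the knockdown samples, with a knockdown mean at 103% of the control mean. The HOXC and HOXD sums also had knockdown samples on both sides of the controls. HOXA held 65.0% and 63.5% of the summed HOX FPKM with the vector and 52.8%, 57.7% and 53.3% in the knockdown samples. These sums are led by HOXA9 and HOXA10 and are given as a description. Over the 22 tested HOX genes, 8 had no overlap between the groups (36.4%), against 40.1% of all tested genes in either direction. Of these 8, 6 were lower, all of them in HOXA. The share of all tested genes without overlap was not counted by direction, so this split has no background to be read against. In either direction, the HOX share was not above that of all tested genes.

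**Figure D4:**
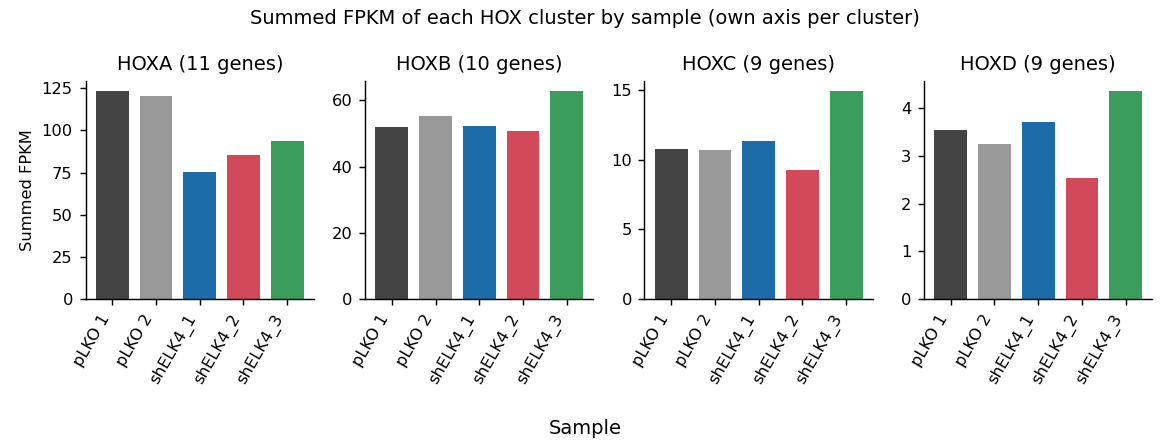
Summed FPKM of the genes of each HOX cluster by sample, each panel with its own axis from 0. The HOXA sums of the 3 knockdown samples (75.5 to 93.5) are below both controls (120 and 123), and in HOXB, HOXC and HOXD the knockdown samples lie on both sides of the controls.

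The order of HOXA levels in the controls, on FPKM, ran from HOXA9 and HOXA10 through HOXA7 and HOXA5 to HOXA6, HOXA11, HOXA4, HOXA13, HOXA3 and HOXA2. The 2 controls of HOXA6 spanned the values of HOXA11 and reached those of HOXA5, and those of HOXA13 overlapped with HOXA4 and HOXA3, so these neighbors did not differ beyond their spread.

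The genes that border the clusters were examined to see whether differences extended beyond the HOX genes. Of 22 flanking genes, 16 were tested, 3 were lower at an unadjusted p under 0.05 from limma and none was higher (0 of 16), against 8.14% lower and 8.08% higher over all tested genes. SKAP2, a signaling adaptor and a coding gene on the HOXA2 side of the cluster, was at 5.62 and 4.74 FPKM with the vector and at 3.55, 2.33 and 2.86 in shELK4_1, shELK4_2 and shELK4_3. The groups did not overlap, and the log2 fold change was -0.67 (limma, adjusted p = 0.133, standard error 0.15). EVX1, the homeobox gene beyond HOXA13, did not exceed 0.162 FPKM. TAX1BP1, an autophagy receptor farther out on that side, was also lower (log2 fold change -0.31, limma adjusted p = 0.156), whereas HIBADH between them was at 10.4 and 9.96 FPKM with the vector and at 11.5 to 14.3 after knockdown (log2 fold change 0.27, limma adjusted p = 0.330).

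Beside HOXB, SKAP1 was at 0.775 and 0.739 FPKM with the vector and at 0.546, 0.538 and 0.258 in the knockdown samples, while TTLL6 on the other side did not exceed 0.173 FPKM and PRAC1 and PRAC2 between HOXB9 and HOXB13 were listed at 0. Beside HOXC, CALCOCO1 was lower (log2 fold change -0.28, limma adjusted p = 0.290), and SMUG1 had a log2 fold change of 0.13 (limma, adjusted p = 0.511). Beside HOXD, EVX2 did not exceed 0.066 FPKM, and MTX2 had overlapping groups (log2 fold change -0.14, limma adjusted p = 0.7001). None of 21 names of noncoding HOX transcripts, such as HOTAIR and HOTTIP, was found in the table, so these were not analysed here.

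The TALE cofactors were examined next, because HOX proteins bind DNA with them. Of 12 genes, 10 were tested, and 4 had an unadjusted p under 0.05 from limma, 2 higher and 2 lower, where 16.2% of all tested genes had such a p. PBX2 was one of the higher genes, at 19.2 and 21.5 FPKM with the vector and 29.6, 22.9 and 28.6 in the knockdown samples (log2 fold change 0.39, limma adjusted p = 0.235). PKNOX1, a MEIS-related partner of PBX proteins, was at 4.52 and 4.62 FPKM with the vector and at 3.3998, 3.42 and 3.58 in the knockdown samples (log2 fold change -0.32, limma adjusted p = 0.170). PBXIP1, which encodes a PBX-interacting protein, had a log2 fold change of -0.31 (limma, adjusted p = 0.221). MEIS1 was listed at 0 in all samples, and MEIS2 had overlapping groups at 1.87 to 2.50 FPKM.

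**Figure D5:**
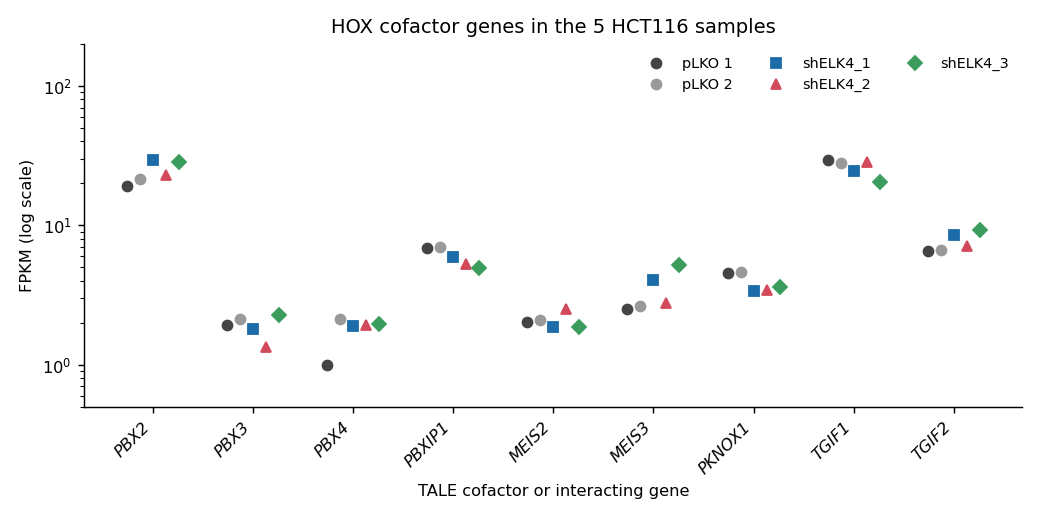
FPKM (log axis) of tested TALE cofactor and interacting genes in each sample, with circles for the pLKO samples and squares, triangles and diamonds for shELK4_1, shELK4_2 and shELK4_3. PBX2 is above both controls with every hairpin (22.9 to 29.6 against 19.2 and 21.5), and PKNOX1 and PBXIP1 are below.

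Among the genes known to set HOX expression, CDX2, the intestinal caudal homeobox factor, was at 4.12 and 5.09 FPKM with the vector and at 3.74, 3.51 and 3.54 in shELK4_1, shELK4_2 and shELK4_3, without overlap (log2 fold change -0.28, limma adjusted p = 0.282), while CDX1 and CDX4 were listed at 0. Of 14 such upstream regulators 8 were tested, and KLF4 (log2 fold change 0.76, adjusted p = 0.138) and the retinoid receptor RXRA (0.22, adjusted p = 0.284) were the higher genes and CDX2 the lower one at an unadjusted p under 0.05 from limma, against 16.2% of all tested genes in either direction. Of 19 Polycomb genes, all 19 were tested, with 2 higher and 1 lower at an unadjusted p under 0.05 from limma, a share near the 16.2% of all tested genes. These were CBX6 (log2 fold change 0.82, adjusted p = 0.170), BMI1 (0.37, adjusted p = 0.201) and PHC3 (-0.24, adjusted p = 0.285, all limma). EZH2, the methyltransferase of Polycomb complexes, overlapped between the groups with a log2 fold change of 0.02 (limma, adjusted p = 0.965). Of 16 trithorax and related genes, 3 were higher and 1 lower at an unadjusted p under 0.05 from limma, against 8.08% and 8.14% of all tested genes. The histone H3 lysine 79 methyltransferase gene DOT1L was at 5.69 and 6.04 FPKM with the vector and at 8.83, 7.88 and 9.91 in the knockdown samples (log2 fold change 0.52, limma adjusted p = 0.122). KDM6B, KMT2C and RBBP5 had log2 fold changes of 0.35, 0.28 and -0.26 (adjusted p = 0.181, 0.230 and 0.298 from limma).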

How the data were processed

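Gene expression was measured by RNA-seq of RNA from 2 pLKO and 3 shELK4 samples of HCT116 cells. The authors deposited FPKM values per gene, which they calculated with Cufflinks relative to all mapped reads. Their processing notes name Trimmomatic 0.36, HISAT2 2.0.5, Cufflinks 2.2.1 and HTSeq 0.9.1, and the genome build and annotation are not given in the sources used here. After 4 rows with repeated names were dropped, 20026 genes remained.

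Genes that reached an FPKM of 1 in 2 or more samples (10780) were compared on log2(FPKM + 1) by limma 3.58.1 in R 4.3.3, using a model of condition alone, a trended empirical Bayes prior and Benjamini-Hochberg adjustment over all tested genes. Fold changes on this scale are too small for weakly expressed genes. The model pools the spread of both groups, which were unlike. Over tested genes, the difference between the 2 controls had a standard deviation of 0.117 on this scale. For pairs of hairpins it was 0.269 to 0.313. HOXA3 was compared with other HOXA genes by exact permutation of the samples (scipy 1.17.1). Positions and exon overlaps are from GENCODE release 44 on GRCh38, and start sites are from RefSeq.

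FPKM values carry no counts. In low genes, however, the commonest ratio between samples gives their relative depth, which was 0.898 to 0.956 of that of pLKO_1 in the other samples. The absolute depth is unknown, so no counting interval is given. The alternatives were a pseudocount of 0.1, an FPKM limit of 0.5 or none, the replicate number as a block, median-of-ratios scaling, a weight for each group and each sample left out in turn.

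The members and lists were chosen with earlier results of these data known. Some results are not reported here, although counts and sums include them. Named genes were ELK4, all HOXA genes, all tested HOX genes, the highest gene of each other cluster, untested genes without overlap whose means were at least 0.1 FPKM apart, the genes nearest each cluster and, per list, up to 6 genes with an unadjusted p under 0.05. HIBADH, CDX1, MEIS1, EZH2 and others given with overlapping values were added as context after their values were seen.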

Additional observations from a re-analysis of the deposited data

How the results depend on the processing

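With both controls kept, 6 to 9 HOX genes had an unadjusted p under 0.05 (limma), 9 of 36 when no FPKM limit was set. The share of all tested genes with such a p moved as well. It was 13.99% with no FPKM limit, and ran from 13.85% with a pseudocount of 0.1 and no limit to 23.2% with a weight for each group. HOXA3, HOXA4, HOXA9 and HOXA10 were negative and HOXB5 positive under all 12 alternatives. HOXA3 passed an adjusted p of 0.05 (limma) with the replicate block (-1.04, adjusted p = 0.0496), with a weight for each group (-0.95, adjusted p = 0.00761) and without shELK4 replicate 2 (adjusted p = 0.0492). It ranged from -1.04 to -0.89 as each sample was left out (adjusted p up to 0.632). Without either pLKO sample the control arm holds 1 sample, the spread comes from the knockdown samples alone and the lone control is assumed to vary like them. The count of HOX genes at an adjusted p under 0.05 was 1 with the replicate block and 5 with a weight for each group (HOXA3, HOXA4, HOXA9 and HOXA10 among them). It was 0 to 2 as each shELK4 sample was left out, HOXA3 being among the 2 without shELK4 replicate 2. In the 3 settings with such a gene, 16.35%, 23.2% and 22.7% of all tested genes had an unadjusted p under 0.05 (limma). The share of all genes at an adjusted p under 0.05 was not counted by setting. Whether the HOX counts in these settings exceed that share is therefore not known. In the replicate block, shELK4_3 has no partner and does not bear on the estimate. The numbers name separate samples, and the correlation of the replicate differences between the groups was 0.0544. ELK4 no longer passed (limma) with no FPKM limit (-1.26, adjusted p = 0.114) or with a pseudocount of 0.1 and no FPKM limit (-1.51, adjusted p = 0.145). It also did not pass without shELK4 replicate 1 (-1.33, adjusted p = 0.0748) or without shELK4 replicate 3 (-1.19, adjusted p = 0.081, limma). It passed without shELK4 replicate 2 (-1.27, adjusted p = 0.0366, limma). The log2 fold change of ELK4 ranged from -1.34 to -1.18 as each sample was left out. The count of context genes at an unadjusted p under 0.05, 17 as reported, ranged from 6 to 23 as each sample was left out, with 6 without pLKO replicate 1 and 7 without pLKO replicate 2. HOXA3 stood lower against 8 to 10 of the 10 other HOXA genes under alternatives chosen after seeing the data, 8 being with no pseudocount and 9 to 10 as each sample was left out. Signs turned for 9 HOX genes, none of which had an unadjusted p under 0.05 as reported. With the replicate block, HOXA5 was 0.0072 and HOXD8 was -0.0900. As each sample was left out, the log2 fold change ranged from -0.19 to 0.0072 for HOXA5, from -0.61 to 0.33 for HOXA6, from -0.17 to 0.0880 for HOXA13, from -0.21 to 0.0178 for HOXB4, from -0.16 to 0.0812 for HOXB7, from -0.0788 to 0.0629 for HOXB9, from -0.29 to 0.0166 for HOXB13, from -0.19 to 0.15 for HOXC9 and from -0.0900 to 0.17 for HOXD8. The cause was not tested.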

Other observations

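HOXA2 was low enough for its values to be set against the smallest of them. After each value was multiplied by the relative depth of its sample, the FPKM of HOXA2 was 10.1 and 11.2 times the shELK4_2 value in the 2 controls, 3.98 times in shELK4_1 and 11.0 times in shELK4_3.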
